A study of Mus musculus with 12 samples.

Results

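The carriers that move bile acids and conjugated organic anions across the hepatocyte membrane were described in liver RNA of autophagy-deficient mice. The members were the rows of the gene count table whose symbol was one of 10 names, and all 10 were found among the 24411 genes of the table. By the side of the cell on which they act, 5 are uptake carriers of the basolateral (sinusoidal) membrane, 3 are exporters of the canalicular membrane and 2 are exporters of the sinusoidal membrane. All 10 passed the filter on low counts and were tested together with all other genes, 13931 in all.

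Livers of 3 genotypes, 3 mice each at 3 months of age, were compared. The cont. mice were Atg7flox/flox, the Atg7-KO mice were Atg7flox/flox;Alb-Cre and the Atg7-KO;p62T352A mice were Atg7flox/flox;Alb-Cre;p62T352A/p62T352A, so the floxed Atg7 allele was shared by all mice. Alb-Cre acts under the albumin promoter, so that Atg7, an enzyme needed to form autophagosomes, is deleted in hepatocytes. The paper calls the knockout hepatocyte-specific, and Atg7 of other liver cells was not measured separately here. The p62T352A allele is a knock-in of the endogenous p62 gene, Sqstm1, made by prime editing, and its product still accumulates in p62 bodies but these hold hardly any KEAP1, the inhibitor of the transcription factor NRF2. The question that these genotypes address is which changes of the Atg7-deficient liver depend on the retention of KEAP1 in p62 bodies. RNA of whole liver was sequenced, and the mice of a genotype are separate animals.

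Hepatocytes take up bile acids from sinusoidal blood and secrete them into the bile canaliculus. Slc10a1 (NTCP) carries conjugated bile acids together with sodium, and the Slco genes encode sodium-independent organic anion carriers of the OATP family. Across the canalicular membrane, Abcb11 (BSEP) exports bile salts, Abcb4 (MDR3 in humans) moves phosphatidylcholine into bile and Abcc2 (MRP2) exports conjugates such as bilirubin glucuronides and glutathione conjugates. Abcc3 (MRP3) and Abcc4 (MRP4) export conjugates and bile acids back to the blood and are known to be induced in cholestasis. The bile acid receptor FXR drives Abcb11, and Abcc2, Abcc3 and Abcc4 have been described as targets of NRF2, which binds antioxidant response elements (AREs).

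On GRCm38 (mm10), by the GENCODE vM21 annotation, the member genes are all protein-coding. Slco1b2, Slco1a4 and Slco1a1 are neighbours within 317445 bases of chromosome 6 (chr6:141629518-141686646, plus strand, then chr6:141805440-141856199 and chr6:141907282-141946962, both minus strand). Slc10a1 lies at chr12:80953183-80968705 and Slco2b1 at chr7:99657804-99711340, both on the minus strand. Of the canalicular exporters, Abcb11 lies at chr2:69238282-69342616 (minus), Abcb4 at chr5:8893717-8959231 (plus) and Abcc2 at chr19:43782192-43840740 (plus). Abcc3 lies at chr11:94343295-94392997 and Abcc4 at chr14:118482692-118706219, both on the minus strand. Of all 75-base stretches of their transcripts, 1.09% of Slco1a1 and 1.03% of Slco1a4 also occur in another gene, mostly in Slco1a4 and Slco1a5, respectively, and 1.30% of Abcb4 occur elsewhere, most often in Abcb1a. Reads from those stretches cannot be assigned to 1 gene with certainty. The other 7 members share no such stretch.

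The 250 bases before each annotated start were read from RefSeq (GRCm38.p6), which held 13 such windows for 9 members, and none for Abcc3. The ARE core TGACNNNGC was searched on both strands and occurs in 10.2% of the 32851 windows of all genes. It was present in the window of Abcc2, of which 116 bases, the match included, lie in an exon by GENCODE, and in both windows of Abcc4, and it was absent from the 10 windows of the other members. These 3 stretches of 30 bases are shown because Abcc2 and Abcc4 are the members with an ARE core and each differed sharply between genotypes. They are written 5′ to 3′ on the strand of the match, with the core in capitals.

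Abcc2, chr19:43782200-43782229, plus strand, 98 bases before the start: ctcactgggaTGACATAGCattcatctagc

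Abcc4, upstream start, chr14:118706225-118706254, plus strand, 25 bases before the start: ccggcccgcccTGACCCCGCctctcggggc

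Abcc4, downstream start, chr14:118676935-118676964, minus strand, 23 bases before the start: aataatctcgTGACTCTGCcgtggtggata

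For comparison, the half-site AGGTCA of nuclear receptors, present in 14.0% of all windows, was found before Slc10a1 (downstream start), Slco1a1, Slco1b2, Abcb11 and Abcc2, and the HNF1 half-site GTTAAT, present in 6.43% of all windows, before Slco1b2. Both were searched on both strands, and no 2 matches overlapped. The windows of Slco1a1 and Abcb11 are shown with the half-sites in capitals, since these were the uptake carrier and the canalicular exporter that fell the most in Atg7-KO livers. A match is a run of letters and not evidence of binding.

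Slco1a1, chr6:141946963-141947212, minus strand: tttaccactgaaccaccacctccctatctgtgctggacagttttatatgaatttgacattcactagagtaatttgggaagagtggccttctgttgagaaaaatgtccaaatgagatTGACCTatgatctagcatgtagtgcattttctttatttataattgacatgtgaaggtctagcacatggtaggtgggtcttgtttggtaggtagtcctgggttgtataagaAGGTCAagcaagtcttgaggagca

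Abcb11, chr2:69342617-69342866, minus strand: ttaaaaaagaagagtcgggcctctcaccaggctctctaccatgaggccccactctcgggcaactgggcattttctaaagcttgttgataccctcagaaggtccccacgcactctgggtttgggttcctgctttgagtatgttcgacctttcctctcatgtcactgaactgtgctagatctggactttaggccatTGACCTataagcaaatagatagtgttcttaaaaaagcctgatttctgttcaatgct

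The libraries held between 9671101 and 23285151 counts, and 8.34% of all values were not whole before rounding. Levels are given as normalized CPM, counts scaled to a common library size with edgeR's TMM factors. Atg7 itself, counted over all its exons, had 44.1 to 55.4 CPM in cont. livers. It had 9.58 to 12.0 CPM when Atg7 alone was deleted and 27.4 to 29.7 CPM when p62T352A was added. It was therefore lower than in cont. in both, but higher in Atg7-KO;p62T352A than in Atg7-KO livers (log2 fold change 1.45 ± 0.17 SE, FDR 0.000164), and the part of this in the results was not tested. Nqo1, a standard NRF2 target, had 6.36 to 12.2, 175 to 249 and 11.7 to 18.4 CPM in cont., Atg7-KO and Atg7-KO;p62T352A livers. Sqstm1 was higher in Atg7-KO than in cont. livers (log2 fold change 1.24, FDR 0.0019). The mice numbered 1 stood apart within every genotype: Xist, expressed from the inactive X chromosome, was at 0.401 to 1.35 CPM in them and at 373 to 2014 CPM in the mice numbered 2 and 3, and Ddx3y of the Y chromosome was at 46.5 to 70.6 CPM in them. In the mice numbered 2 and 3 Ddx3y was at 0.384 to 23.6 CPM, the highest being cont. mouse 2, which also had 1181 CPM of Xist. The labels give no sex.

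Markers of the liver's cell types were read beside the members. Hepatocyte markers were present in every mouse, with a summed level of 75142 to 139326 CPM in cont. livers. The sums were 38620 to 41409.6 CPM for Atg7-KO and 111701 to 128321 CPM for Atg7-KO;p62T352A livers. Alb alone made up most of these sums, with means of 62567, 26111 and 79152 CPM in cont., Atg7-KO and Atg7-KO;p62T352A livers. Of 8 hepatocyte markers, 6 fell in Atg7-KO against cont. livers, with a median log2 fold change of -1.31 over the list. In Atg7-KO;p62T352A against cont. livers, 1 of 8 was called lower, beside 5.33% of all tested genes. Cholangiocyte markers summed to 33.5 to 51.6, 836 to 1030 and 181 to 267 CPM in the same order, and 6 of 7 tested rose in Atg7-KO livers. Most of these sums was Spp1 alone, with means of 33.8, 871 and 172 CPM. Against Atg7-KO livers, 5 of 7 were called lower in Atg7-KO;p62T352A livers, beside 26.2% of all tested genes. However, 3 of 7 were called higher there than in cont. livers, beside 6.24% of all tested genes. Kupffer cell and macrophage markers summed to 273 to 351, 767 to 839 and 185 to 357 CPM, with 5 of 7 called higher in Atg7-KO livers. Stellate cell markers summed to 243 to 293, 565 to 604 and 351 to 535 CPM, with 4 of 7 called higher in Atg7-KO livers. Those of sinusoidal endothelium summed to 356 to 390, 312 to 323 and 168 to 212 CPM, with 2 of 7 called higher and 1 lower in Atg7-KO livers. In Atg7-KO;p62T352A against cont. livers, 5 of 7 endothelial markers were called lower, beside 5.33% of all tested genes. Lymphocyte markers summed to 4.18 to 16.6, 11.8 to 17.0 and 7.90 to 12.4 CPM, with 3 of 6 called higher in Atg7-KO livers. No marker of any list was at 0 in all mice of a genotype. In whole liver, fewer cells of a type and less RNA per cell cannot be told apart, and the part of these shifts in the results on the members was not tested.

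The first comparison was that of Atg7-KO with cont. livers. All 5 uptake carriers fell, between 2.67-fold and 44.6-fold. Abcb11 fell 5.08-fold, while Abcb4 and Abcc2 were not called. Both sinusoidal exporters rose, Abcc4 by 53.9-fold and Abcc3 by 1.52-fold. In all, 8 of 10 members were called, beside 43.7% of all tested genes. Of these, 6 were lower, beside 22.1% of all tested genes, and 2 were higher, beside 21.6%. Calls needed an FDR under 0.05 and a fold change over 1.5 in edgeR's quasi-likelihood test. The median log2 fold change was -1.75 over the uptake carriers and 0.20 over the 5 exporters, beside -0.03 over all tested genes.

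**Figure D1:**
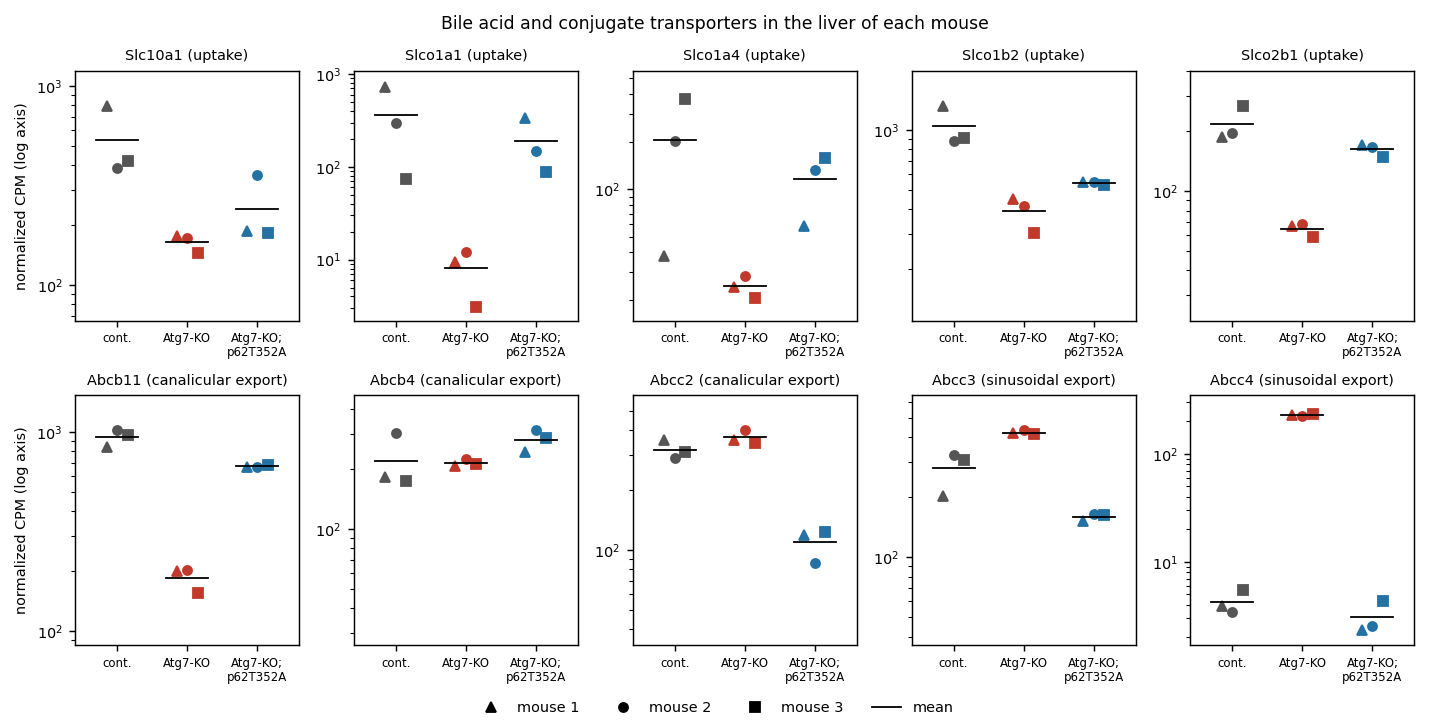
Normalized CPM (log axis) of the 10 members in each of the 9 mice, 1 panel per gene, with mouse 1 as triangle, mouse 2 as circle and mouse 3 as square, and the mean of each genotype as a line. Abcc4 sat at 224 to 232 CPM in Atg7-KO livers and at 2.36 to 5.49 CPM in all other livers, whereas Abcb11 sat at 155 to 203 CPM in Atg7-KO livers and at 666 CPM or more in all others.

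Slco1a1, an uptake carrier of organic anions and bile acids, fell the most. It had 725, 298 and 73.9 CPM in cont. mice 1, 2 and 3 and 9.43, 12.1 and 3.07 CPM in Atg7-KO mice (log2 fold change -5.48 ± 0.93, FDR 0.00142). The cont. mice differed from each other by nearly an order of magnitude, yet the lowest of them was far above the highest Atg7-KO mouse. Leaving out cont. mouse 1 reduced the log2 fold change to -4.50, leaving out cont. mouse 3 moved it to -5.97, and the call remained in both cases.

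Its neighbour Slco1a4, a carrier with overlapping substrates, ran the other way among the cont. mice, with 38.2, 201 and 373 CPM in mice 1, 2 and 3. Atg7-KO mice held 24.2, 28.2 and 20.8 CPM (log2 fold change -3.06 ± 0.69, FDR 0.0059). All Atg7-KO values were below all cont. values, but the gap was narrow for cont. mouse 1. Without cont. mouse 3 the log2 fold change was -2.29 (FDR 0.0173). In mouse liver Slco1a1 is known as a male-predominant and Slco1a4 as a female-predominant transcript. Among the mice numbered 1, which had almost no Xist, the log2 difference between Atg7-KO and cont. was -6.27 for Slco1a1 and -0.66 for Slco1a4, whereas it averaged -4.61 and -3.50, respectively, among the mice numbered 2 and 3. This difference between the mice was not tested, since it rests on 1 mouse per genotype.

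**Figure D2:**
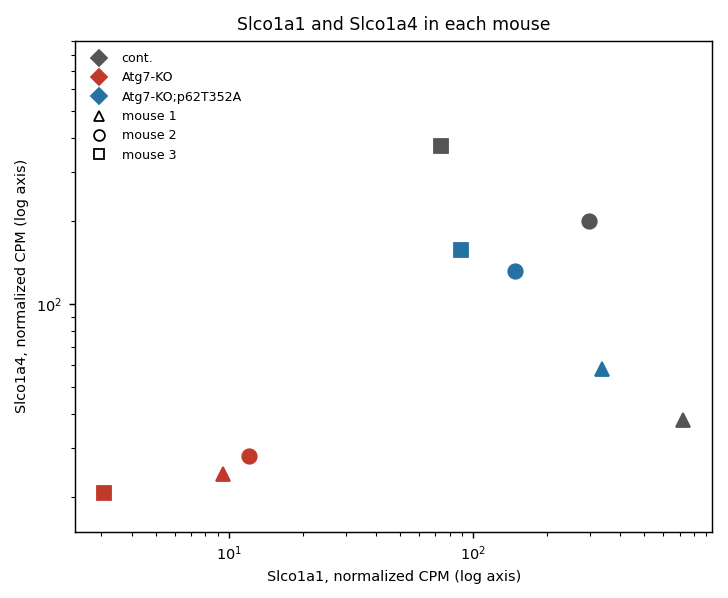
Slco1a1 against Slco1a4 in normalized CPM (both axes log) for the 9 mice, colour by genotype and shape by mouse number. Among cont. and Atg7-KO;p62T352A mice, mouse 1 had the highest Slco1a1 (725 and 338 CPM) and the lowest Slco1a4 (38.2 and 58.3 CPM), whereas the 3 Atg7-KO mice lay together at 3.07 to 12.1 and 20.8 to 28.2 CPM.

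The other uptake carriers fell by smaller factors. Slc10a1, the sodium-dependent bile acid carrier, had 794, 387 and 419.5 CPM in cont. and 177, 173 and 145 CPM in Atg7-KO mice (log2 fold change -1.69 ± 0.35, FDR 0.00377). Slco1b2, a liver-specific carrier of bile acids and bilirubin conjugates, had 1324, 885 and 914 against 450.1, 417 and 303 CPM (-1.42 ± 0.23, FDR 0.00113). Slco2b1, a carrier of steroid sulphates, had 187, 197 and 269 against 67.0, 68.4 and 58.8 CPM (-1.75 ± 0.19, FDR 0.000142). No cont. mouse overlapped an Atg7-KO mouse in any of these 3 genes.

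The canalicular exporters diverged. Abcb11, the bile salt export pump, had 844, 1020.2 and 971 CPM in cont. and 200.4, 203 and 155 CPM in Atg7-KO mice (log2 fold change -2.34 ± 0.19, FDR 3.38e-05). It fell as a uniform shift of all mice, as the spread within both genotypes was small. Abcb4, the phospholipid translocator, had 182, 302 and 175 against 206, 225 and 213 CPM, and the groups overlapped (-0.03 ± 0.23, 95% interval -0.55 to 0.48, FDR 0.913). Abcc2, the conjugate exporter, had 356, 289 and 312 against 357, 398 and 346 CPM, and these groups overlapped as well (0.20 ± 0.19, 95% interval -0.22 to 0.63, FDR 0.41). For both, a change of the size seen in Abcb11 lay outside the interval.

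The sinusoidal exporters rose. Abcc4 was the scarcest member in cont. livers, with 3.90, 3.40 and 5.49 CPM from 68, 36 and 50 counts. In Atg7-KO mice it had 229.9, 224 and 232 CPM from 4754, 5449 and 5438 counts (log2 fold change 5.75 ± 0.30, 95% interval 5.08 to 6.42, FDR 7.18e-06). All Atg7-KO mice were far above all cont. mice and close to each other.

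Abcc3 rose far less, from 202, 327 and 308 CPM in cont. to 419, 433 and 416 CPM in Atg7-KO mice (log2 fold change 0.60 ± 0.20, FDR 0.0357). The groups did not overlap, but the fold change of 1.52 lay at the threshold of 1.5, and 10 of 19 alternatives lost the call. Without cont. mouse 1, whose value was the lowest, the log2 fold change was 0.41. The call was also lost without Atg7-KO mouse 1, 2 or 3 (0.61, 0.58 and 0.61, FDR 0.0893, 0.101 and 0.0885) and without Atg7-KO;p62T352A mouse 1 or 3 (FDR 0.0502 and 0.0552), which share the estimate of the spread.

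Introducing p62T352A into Atg7-KO mice was compared next, with the same 3 Atg7-KO livers as the reference, so that the fold changes of both comparisons share these mice. Of 10 members, 7 were called, beside 51.0% of all tested genes. Of these, 4 were called higher, beside 24.7% of all tested genes, and 3 were called lower, beside 26.2%. Higher were Slco1a1, Slco1a4, Slco2b1 and Abcb11, by 2.50-fold to 23.3-fold. Lower were Abcc4, Abcc2 and Abcc3, by 74.3-fold, 3.36-fold and 2.64-fold. Abcc2 thus moved with the other Abcc members, Abcc3 and Abcc4, in this comparison although it was not called in the first one. Slc10a1, Slco1b2 and Abcb4 were not called.

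**Figure D3:**
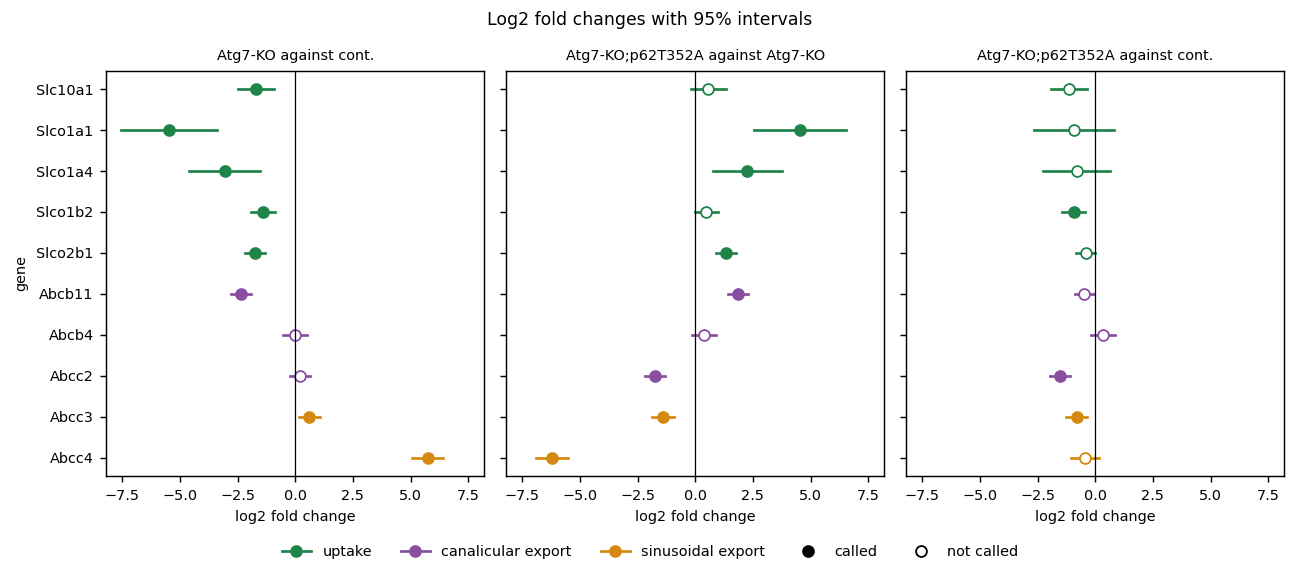
Log2 fold changes of the 10 members (points) with 95% intervals (lines) in the 3 comparisons, coloured by side of transport, with filled points for called genes. Abcc4 lay at 5.75, -6.22 and -0.46 in the 3 comparisons, and Abcc2 at 0.20, -1.75 and -1.55.

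Among the uptake carriers, Slco1a1 had 338, 148 and 88.9 CPM in Atg7-KO;p62T352A mice, every one above every Atg7-KO mouse (log2 fold change 4.55 ± 0.89, FDR 0.00242). Without Atg7-KO;p62T352A mouse 1 the value was 3.85. Slco1a4 had 58.3, 132 and 157 CPM and did not overlap with Atg7-KO mice either (2.25 ± 0.67, FDR 0.0179). Its call was lost without Atg7-KO mouse 1 (2.24, FDR 0.0552), Atg7-KO mouse 3 (2.14, FDR 0.0626) or Atg7-KO;p62T352A mouse 3 (1.97, FDR 0.056). Slco2b1 had 171, 167 and 148 CPM, a rise of 1.32 ± 0.19 on the log2 scale (FDR 0.000445).

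Slc10a1 and Slco1b2, the members with the highest uptake levels per length, were not called. Slc10a1 had 186, 356 and 183 CPM, where mouse 2 was close to the cont. mice and the other two close to the Atg7-KO mice (log2 fold change 0.55 ± 0.34, 95% interval -0.21 to 1.31, FDR 0.194). Slco1b2 had 551, 549.5 and 528 CPM, each above the highest Atg7-KO mouse at 450.1 CPM (0.48 ± 0.23, 95% interval -0.03 to 0.98, FDR 0.101). All Atg7-KO;p62T352A mice were above all Atg7-KO mice in both genes, by small margins for Slc10a1.

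Of the exporters, Abcb11 had 669.5, 666 and 687 CPM in Atg7-KO;p62T352A mice (log2 fold change 1.86 ± 0.19, FDR 9.67e-05). Abcb4 had 244, 312 and 284 CPM, which was above all Atg7-KO mice but not called (0.38 ± 0.23, 95% interval -0.14 to 0.90, FDR 0.187). Abcc2 had 118, 86.4 and 123 CPM against 346 to 398 CPM in Atg7-KO mice (-1.75 ± 0.20, FDR 0.000148). All 3 mice were thus well under the Atg7-KO range.

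On the sinusoidal side, Abcc3 had 152, 165 and 163 CPM (log2 fold change -1.40 ± 0.21, FDR 0.000529), below all Atg7-KO mice. Abcc4 had 2.36, 2.52 and 4.31 CPM from 33, 36 and 66 counts (-6.22 ± 0.31, 95% interval -6.90 to -5.53, FDR 7.53e-06). This was the largest change of any member in any comparison, and it was called in every one of 19 alternatives, as were the calls of Slco1a1, Slco2b1, Abcb11, Abcc2 and Abcc3 in this comparison.

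The third comparison set Atg7-KO;p62T352A against cont. livers, the same mice as above. It asked what differed when Atg7 was deleted and KEAP1 was not held in p62 bodies. These groups differ both in the deletion of Atg7 and in the p62T352A allele. Mice with p62T352A and intact Atg7 were not analysed, so the parts of both in a difference cannot be told apart. Of 10 members, 3 were called, beside 11.6% of all tested genes, and all 3 were lower, beside 5.33%. These were Abcc2 (2.92-fold), Slco1b2 (1.92-fold) and Abcc3 (1.74-fold). By edgeR no member was called higher, none had an unadjusted p under 0.05 in that direction, and DESeq2 called none either, beside 6.24% of all tested genes called higher. The sign of the fold change was negative in 9 of 10 members, Abcb4 being the exception.

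Abcc2 was the member with the most stable difference between these groups. The Atg7-KO;p62T352A mice (118, 86.4 and 123 CPM) lay below all cont. mice (356, 289 and 312 CPM), with a log2 fold change of -1.55 ± 0.20 and an FDR of 0.00481. The call was kept in all 19 alternatives, with values from -1.69 to -1.41. Abcc2 was therefore near the cont. level in Atg7-KO livers and below it in Atg7-KO;p62T352A livers, unlike Abcc4, which was at a low level in both cont. and Atg7-KO;p62T352A livers (-0.46 ± 0.27, 95% interval -1.07 to 0.14, FDR 0.295).

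Abcc3 was lower than in cont. mice by 0.80 ± 0.20 on the log2 scale (log2 fold change -0.80, FDR 0.0343), and the groups (152 to 165 against 202 to 327 CPM) did not overlap. Its call depended on single mice: it was lost without any 1 of the mice other than cont. mouse 1, with FDR values of 0.0666 to 0.104 and log2 fold changes of -0.82 to -0.73, whereas without cont. mouse 1 it was -0.99 (FDR 0.00202). With the mouse number as a block the FDR was 0.0603.

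Among the uptake carriers, Slco1b2 (528 to 551 against 885 to 1324 CPM) was called at -0.94 ± 0.23 (FDR 0.0295). This call was lost without Atg7-KO mouse 1 or 2 (FDR 0.0561 and 0.0611) and without Atg7-KO;p62T352A mouse 1, 2 or 3 (FDR 0.0772, 0.0717 and 0.104), with values of -0.95 to -0.92. Slc10a1 was lower in each Atg7-KO;p62T352A mouse than in each cont. mouse but was not called (-1.14 ± 0.34, 95% interval -1.91 to -0.37, FDR 0.0598). DESeq2 called it (-1.20, FDR 0.0109), and it was called without Atg7-KO;p62T352A mouse 2 (-1.53, FDR 0.0365).

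For Slco1a1, the groups overlapped (-0.93 ± 0.77, 95% interval -2.66 to 0.80, FDR 0.468), and without cont. mouse 1 the value was 0.04. For Slco1a4, they overlapped too (-0.82 ± 0.64, 95% interval -2.25 to 0.62, FDR 0.443). Here the mice numbered 1 differed by 0.61 and those numbered 2 and 3 by -0.93 on average, and without cont. mouse 1 the gene was called lower (-1.31, FDR 0.0309). Abcb11 was lower in each Atg7-KO;p62T352A mouse than in each cont. mouse, at -0.49 ± 0.18 (95% interval -0.89 to -0.08, FDR 0.115), and Slco2b1 likewise at -0.42 ± 0.19 (95% interval -0.84 to -0.01, FDR 0.171), but neither was called. Abcb4 was at 0.35 ± 0.23 (95% interval -0.17 to 0.87, FDR 0.361).

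Levels of different members were compared as normalized CPM per kilobase of exon. In cont. livers Slc10a1 (243 ± 103, SD, n = 3), Slco1b2 (211 ± 49.7) and Abcb11 (184 ± 17.7) were the most abundant, with overlapping mice. By this length, a gap separated them from Slco1a1 (69.3 ± 62.7), Abcc3 (49.0 ± 11.8), Abcc2 (37.4 ± 4.03), Slco2b1 (36.5, mice from 31.4 to 45.1), Slco1a4 (31.8 ± 26.1) and Abcb4 (23.4 ± 7.65), each of which overlapped with the next. Abcc4 (0.667 ± 0.171) was far below all others. With the longest transcript as the length, Slco1b2 (315) came first, the gap lay between Slc10a1 (305) and Abcb11 (188), and Abcb11 overlapped with Slco1a1 (93.7).

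In Atg7-KO livers the order was different. Slco1b2 (79.1 ± 15.7), Slc10a1 (74.9 ± 7.87) and Abcc3 (74.2 ± 1.61) led and did not separate. Abcc2 (43.0 ± 3.22) followed, and then Abcb11 (36.2 ± 5.22) and Abcc4 (35.8 ± 0.660), whose mice overlapped, so that the bile salt export pump and the scarcest exporter of cont. livers stood at like per-length levels. Slco1a1 (1.55 ± 0.878) and Slco1a4 (3.80 ± 0.578) were the lowest. In Atg7-KO;p62T352A livers, Abcb11 (131 ± 2.22) was the highest, above Slco1b2 (110.1, mice from 107 to 112) and Slc10a1 (109.9 ± 44.9) in the mean though the latter's mouse 2 was higher, and Abcc4 (0.479 ± 0.169) was again the lowest. With the longest transcript as the length, however, Slco1b2 (164) and Slc10a1 (138) were above Abcb11 (134) in these livers, and the mice of each overlapped with those of the next. By that length Abcb4 rose in rank in all genotypes, to 53.9, 52.6 and 68.6 CPM per kilobase.

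Summed by side, uptake carriers had 476 to 804 CPM per kilobase in cont. mice, against 141 to 188 for Atg7-KO and 256 to 349.8 for Atg7-KO;p62T352A mice. Canalicular exporters summed to 225 to 264, 93.3 to 110.02 and 169.9 to 178, and sinusoidal exporters to 36.1 to 57.9, 109 to 111 and 27.0 to 29.4. Per mouse, the ratio of uptake to export was 1.48 to 3.08 in cont. livers and 1.24 to 1.73 in Atg7-KO;p62T352A livers, whereas it was 0.696 to 0.888 in Atg7-KO livers. The ratio of sinusoidal to canalicular export was 0.160 to 0.225 in cont. mice, 1.01 to 1.17 with Atg7 deleted and 0.159 to 0.170 with p62T352A added. With the longest transcript as the length, the ratio of sinusoidal to canalicular export in Atg7-KO mice was 0.867 to 0.982. By that length, the ratio of uptake to export in Atg7-KO mice was 0.777 to 1.01. It was 1.75 to 3.67 in cont. and 1.42 to 1.90 in Atg7-KO;p62T352A mice. These sums describe transcripts and not transport, and they were given no test.

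**Figure D4:**
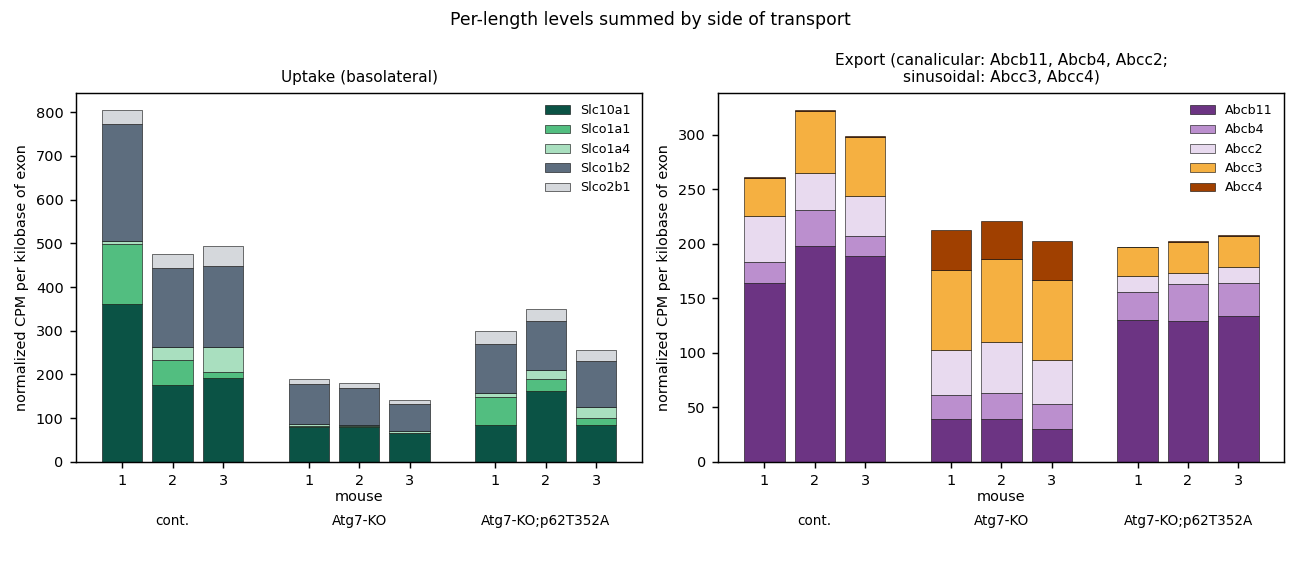
Stacked bars of normalized CPM per kilobase of exon for the 5 uptake carriers (left) and the 5 exporters (right) in each mouse. Uptake bars were 141 to 188 in Atg7-KO livers against 476 to 804 in cont. livers, and Abcb11 took 61.5% to 63.2% of the export bar in cont. livers, 14.9% to 18.4% with Atg7 deleted and 64.1% to 66.0% with p62T352A added.

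From cont. to Atg7-KO livers, the makeup of the export sum changed more than its size. With p62T352A added, the shares of Abcb11 and Abcc4 were near those of cont. livers, while the canalicular and sinusoidal sums were lower. The makeup was not that of cont. livers for all exporters. Abcc2 had a mean of 37.4 CPM per kilobase in cont. and 12.8 in Atg7-KO;p62T352A livers, whereas Abcb4 had 23.4 and 29.8. Abcb11 made up 62.5% ± 0.855 (SD, n = 3) of the export sum in cont. livers, 17.0% ± 1.88 with Atg7 deleted and 64.8% ± 1.08 with p62T352A added. In the same order, Abcc3 made up 16.5% ± 2.54, 35.0% ± 0.892 and 13.9% ± 0.384, and Abcc4 0.229% ± 0.0613, 16.9% ± 1.03 and 0.236% ± 0.0771. Of the uptake sum, Slc10a1 held 40.2% ± 4.19, 44.2% ± 2.19 and 35.7% ± 9.35, and Slco1a1 10.6% ± 7.21, 0.875% ± 0.430 and 12.0% ± 8.22.

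The pattern over the 9 mice was compared with that of the 8509 genes with a mean of at least 10 CPM. Slc10a1 was most like Paics (Pearson's r of log2 CPM 0.98) and Cyp2j5 (0.97). Abcc4 was most like Styk1 (r = 1.00), Slc25a24 (1.00) and H2-Ab1 (0.99). All 3 of the latter were high in Atg7-KO livers alone, as Styk1 had 43.2 to 51.9 CPM there and 0.140 to 0.549 CPM in the other mice. These correlations are descriptions over 9 libraries of 3 genotypes, which drive them.

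Around the members, 4 lists of genes were read in the same tests. Of 35 tested transporters of other bile constituents, organic anions and cations, 7 rose and 10 fell in Atg7-KO against cont. livers, with a median log2 fold change of -0.22. Over all tested genes, 21.6% rose and 22.1% fell, a background against which this and the next lists are to be read. The largest rise was that of Abcb1a, a multidrug efflux pump (3.04, FDR 0.000741), which was back at 1.29 to 3.43 CPM in Atg7-KO;p62T352A livers from 21.5 to 27.2 CPM in Atg7-KO livers. Slc22a28, an organic anion carrier gene, fell the most (-5.23, FDR 0.0041), and its cont. values ran from 33.0 CPM in mouse 1 to 3.08 CPM in mouse 3, as those of Slco1a1 did. The sinusoidal bile acid exporter OST is made of 2 chains, Slc51a and Slc51b. It was looked up for this role after its values were seen. Slc51a had 0 counts in all 9 mice, which allows up to 0.330 CPM (3 counts) in the shallowest library. Slc51b had 4, 1 and 3 counts in cont. mice, 32, 33 and 44 in Atg7-KO mice (2.84 ± 0.62, FDR 0.00486) and 7, 29 and 12 when p62T352A was added. It was not called in Atg7-KO;p62T352A against Atg7-KO livers (-0.53 ± 0.48, FDR 0.376) and was called higher than in cont. livers (2.32 ± 0.64, FDR 0.0458). In Atg7-KO;p62T352A against cont. livers, 3 of the 35 transporters, Slc51b included, were called higher, beside 6.24% of all tested genes, and 3 lower, beside 5.33%.

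Of 25 tested nuclear receptors and other regulators of these carriers, 13 fell and 2 rose in Atg7-KO against cont. livers (median -0.75). In Atg7-KO;p62T352A against Atg7-KO livers, 14 rose and 3 fell (median 0.73), beside 24.7% and 26.2% of all tested genes. Nr1i3 (CAR), a receptor that induces drug transporters, fell the most, from 73.0 to 350.4 CPM in cont. to 26.7 to 37.8 CPM in Atg7-KO mice (-2.76, FDR 0.00225). S1pr2, a receptor for conjugated bile acids, rose the most, from 1.65 to 5.85 to 20.1 to 24.0 CPM (2.36, FDR 0.000921). Nr1h4 (FXR), named after its values were seen because it drives Abcb11, had 133 to 271 CPM in cont. mice, 50.5 to 56.7 CPM with Atg7 deleted (-1.96, FDR 0.000331) and 172 to 214 CPM with p62T352A added (1.89 against Atg7-KO, FDR 0.000339). As for Abcb11, no Atg7-KO mouse overlapped a mouse of the other genotypes.

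Of 31 genes for canalicular anchoring, polarity and vesicle traffic, 5 rose and 6 fell in Atg7-KO against cont. livers, with a median of -0.02, and both shares were below the 21.6% and 22.1% of all tested genes. Rab11fip5, an effector of recycling endosomes, rose from 1.32 to 1.65 to 5.08 to 7.21 CPM (2.05, FDR 0.00101), and Stk11 (LKB1), a polarity kinase, fell from 74.7 to 164 to 48.7 to 55.3 CPM (-1.32, FDR 0.00364). Of 18 tested genes for bile acid synthesis and conjugation, 9 fell and 1 rose (median -0.91). The rise was that of Akr1d1, a bile acid reductase (0.79, FDR 0.0209), and the largest fall that of Cyp46a1, a cholesterol hydroxylase counted at 3 to 7 per Atg7-KO library (-4.55, FDR 0.000445). All 8 listed NRF2 targets rose in Atg7-KO against cont. livers and fell in Atg7-KO;p62T352A against Atg7-KO livers.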

How the data were processed

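The authors sequenced poly(A) RNA from mouse livers (single-end, 75 bp). Per the labels' processing notes, Trim Galore, STAR, RSEM and mm10 were used; versions, annotation and strand setting were not given in the sources used here. The deposited table holds expected counts per gene, 1 column per mouse, which the authors did not scale for depth. They were rounded to whole numbers.

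Genes were kept by filterByExpr, scaled by TMM and fitted over 9 mice in 1 quasi-likelihood model with R 4.3.3 and edgeR 4.0.16. FDR is Benjamini-Hochberg adjusted over all 13931 tested genes. A call needed an FDR under 0.05 and a fold change over 1.5. Standard errors and 95% intervals came from the F statistic and its degrees of freedom. The steps were tested on simulated data. DESeq2 1.42.0 and other settings served as alternatives. Tables and plots were made with Python 3.11.15, pandas 2.3.3, scipy 1.17.1 and matplotlib 3.10.9.

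The members and all lists were chosen with earlier results of these data known. Besides the members, genes named are the largest called rise and fall of each list around the members in Atg7-KO against cont. livers (mean CPM of at least 1), Atg7, Sqstm1, Nqo1, Xist, Ddx3y and the 3 genes most like Slc10a1 and Abcc4, of which 1 is not reported here. Nr1h4, Slc51a and Slc51b were added after their values were seen. Labels exist for 3 p62T352A mice not analysed here. For RNA extraction, the methods name TRIzol and the labels a column kit.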

Additional observations from a re-analysis of the deposited data

Results flagged for a closer look

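In Atg7-KO;p62T352A against cont. livers, Slco1a4 moved in opposite directions among mice with different numbers. The log2 difference was 0.61 between the mice numbered 1, whose Xist was near 0, and averaged -0.93 between the mice numbered 2 and 3, where it was negative for both numbers. The difference was not tested, since it rests on 1 mouse per genotype.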

How the results depend on the processing

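The count of members called lower in Atg7-KO against cont. livers was 6 in all 19 alternatives, and the 3 called lower in Atg7-KO;p62T352A against Atg7-KO livers were 3 in all. The 2 called higher in Atg7-KO were 1 with DESeq2, with DESeq2's size factors, with glmTreat (which tests against a fold change of 1.5) and without the mice numbered 1, and 1 to 2 with each mouse left out. The 4 called higher in Atg7-KO;p62T352A against Atg7-KO livers were 3 to 4 with each mouse left out. The 3 called lower than in cont. were 1 with glmTreat and 1 to 4 with each mouse left out. Of 570 refitted fold changes of members, 29 lost a call, 3 gained one and 4 turned in sign. These 4 were Abcb4 in Atg7-KO against cont. livers (0.086 with upper-quartile scaling, 0.0045 with the replicate block, -0.18 to 0.19 with each mouse left out, the latter without cont. mouse 2) and Slco1a1 in Atg7-KO;p62T352A against cont. livers (-1.63 to 0.044 with each mouse left out, the latter without cont. mouse 1). Upper-quartile scaling moved the median of all genes from 0.00 to -0.13 in Atg7-KO;p62T352A against Atg7-KO livers. Over all genes, glmTreat called 1714 lower in Atg7-KO and 101 higher and 152 lower in Atg7-KO;p62T352A against cont. livers, in place of 3076, 869 and 742. With each mouse left out, these last counts were 245 to 1515 and 191 to 1731, the highest without cont. mouse 1. The lists around the members ranged as widely, with 1 to 12 in place of 3 other transporters called lower in Atg7-KO;p62T352A than in cont. livers, 5 to 13 in place of 7 called higher in Atg7-KO, 6 to 16 in place of 13 regulators called lower and 4 to 10 in place of 5 anchoring genes called higher. No label says that a number marks a shared litter, batch or day, and the numbers were not taken to pair the mice. Deviations of same-numbered mice correlated by -0.20 to 0.32, with a mean of 0.15 beside -0.07 for the other pairs. Since deviations were taken from the mean of each genotype, these means are tied to each other. The value of the other pairs is therefore no independent baseline. Of 9 same-numbered pairs, 6 were over 0.1. These were the 3 pairs of the mice numbered 1 (0.14 to 0.27), which shared the low Xist. The others were the 3 pairs of the mice numbered 3 (0.18 to 0.32), which did not share it. With the number as a replicate block, the member counts were those of the report except in Atg7-KO;p62T352A against cont. livers, where 2 in place of 3 were lower (Abcc3 was lost at -0.78), while 517 of all genes rose and 470 fell there in place of 869 and 742. The cause of these changes was not tested.

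Depth limits statements on Slc51a, Slc51b and the low levels of Abcc4, which rest on 33 to 68 counts per library. With 3 mice in a genotype, the intervals given limit the precision, and p-values rest on a spread that all 3 genotypes share.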
